A study of Mus musculus with 12 samples.

Results

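Homeobox and zinc finger factors of regional identity were examined in sensory neuron fractions of mouse trigeminal ganglia (TG) and dorsal root ganglia (DRG). The members were the genes whose symbols consist of Irx, Pitx, Otx, Lhx, Meis, Pbx, Dlx, Msx, Pax, Onecut, Tshz or Zic followed by a number, together with the numbered sine oculis homologs such as Six4, which gave 61 of the 22609 genes in the count files. Hox genes were not among them. All animals were naive mice of the strain labelled C57BL, with no transgene, labelled 3-4 months old, whereas the methods of the study give a younger age range, and the females were in the estrous phase. Per the methods of the study, lumbar DRG and the TG were taken from both sides. Ganglia were dissociated and neurons were enriched by density on Percoll, so each fraction still held other cells. There were 4 groups of 3 libraries: female TG, male TG, female DRG and male DRG. The number of animals behind a library, and whether a TG and a DRG library came from the same animals, were not given in the sources used here. The p-values below therefore measure the spread between these libraries, which may be partly technical.

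These factors bind DNA and, in the embryo, mark where along the body axis and in which lineage a cell lies. The TG, which innervates the face, arises from cranial neural crest and from placodes, whereas DRG arise from trunk neural crest. PBX and MEIS proteins belong to the TALE class of homeodomain factors and bind DNA together with each other and with HOX proteins, which are made in trunk but largely not in the most anterior tissue. The sine oculis homologs act with EYA coactivators in placodes and sensory neurons, ONECUT proteins join a cut domain to a homeodomain, TSHZ proteins are zinc finger relatives of the fly teashirt, and DLX, MSX, OTX and PITX proteins are known from the head, face and forebrain.

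Library totals ran from 7511765 to 15396090 gene counts, and 3 counts, used as the detection floor, corresponded to between 0.195 and 0.399 CPM, the count scaled to library size. Female DRG 1 stood apart on the first principal component of all tested genes (25.1% of variance), at 164 where the other libraries lay between -40.4 and 26.1. Female TG 3 stood apart on the third (14.6%), at 126 where the others lay between -38.4 and 10.5. Calls that changed without these 2 libraries are given beside their values. The 8 sensory neuron markers (Rbfox3, Tubb3, Uchl1, Prph, Nefh, Snap25, Scn9a and Avil) summed to between 4521 and 7248 CPM in TG and to between 4650 and 8538 CPM in DRG, and 0 of the 8 passed the TG against DRG test. Satellite glia markers summed to between 4031 and 7029 CPM in TG and between 2659 and 5922 in DRG, so both ganglia carried glial RNA.

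Few of the 61 members were abundant in these fractions. Only 11 had at least 10 counts in each of the 12 libraries, among them Meis1, Meis2, Onecut2, Pbx2, Pbx3, Six4, Tshz1, Tshz2 and Tshz3. This was 18.0% of the members, beside 49.8% of all genes. A further 11 passed the filter on low counts but fell below 10 counts in some library, namely Dlx1, Dlx3, Lhx6, Meis3, Onecut1, Pax9, Pbx4, Six5, Zic1, Zic2 and Zic4. Another 21 had some counts but did not pass the filter, and 18 were at 0 in all 12 libraries (29.5% of members, beside 22.3% of all genes). Among the genes at 0 were both Otx genes, Pitx1, Msx2 and Msx3, Dlx6, Irx1, Irx2 and Irx4, Lhx1, Lhx4, Lhx5 and Lhx8, and Pax1, Pax2, Pax4 and Pax6. A count of 0 allows up to the floor of 3 counts in a library, so these genes were not detectable at this depth.

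**Figure D1:**
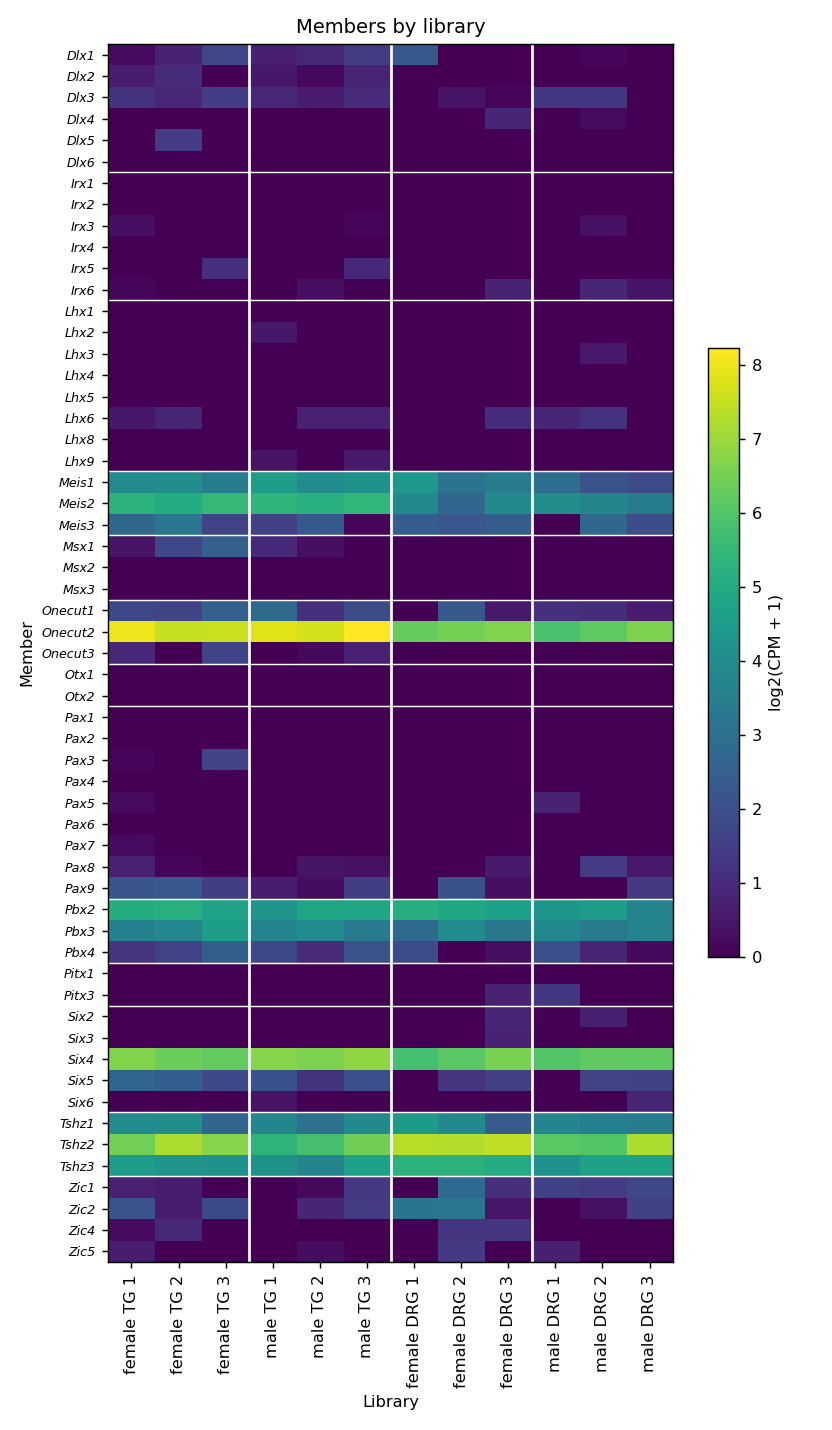
The color gives log2(CPM + 1) of 57 members (rows, grouped by family) in each of the 12 libraries (columns, in 4 groups of 3). Onecut2, Six4 and Tshz2 are bright throughout, and 17 rows are at 0 in every library.

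To set levels of different genes side by side, CPM was divided by the exon length of each gene in kilobases. On this per-length scale 9 of the 11 abundant members were ranked within each ganglion, and the order was not the same in both. Pbx3 and Meis1 kept their place. In TG, Six4 stood at 17.0 ± 2.73 CPM per kilobase (SD, n = 6), above Onecut2 (14.2 ± 2.85) in 6 of 6 libraries, and Onecut2 exceeded Tshz2 (11.4 ± 4.96) in 4 of 6. Below these came Pbx2 at 7.65 ± 1.59, Tshz3 at 3.79 ± 0.886 and Meis2 at 3.29 ± 0.368, and Tshz3 exceeded Meis2 in 4 of 6 libraries. Pbx3, Meis1 and Tshz1 lay between 2.01 and 2.18, within their spread of each other. In DRG, Tshz2 stood at 16.7 ± 6.37 CPM per kilobase and exceeded Six4 (12.6 ± 2.44) in 4 of 6 libraries. Pbx2 was at 6.49 ± 2.12, Tshz3 at 5.91 ± 1.64 and Onecut2 at 5.15 ± 1.02, and Tshz3 exceeded Onecut2 in 4 of 6 libraries. Meis2 was the lowest of these 9 in DRG, at 1.02 ± 0.317, next to Meis1 at 1.14 ± 0.840, which exceeded it in 3 of 6 libraries.

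Within families, 1 gene often supplied most of the per-length level. Onecut2 made up 89.4% ± 5.85 of the Onecut level in TG and 90.5% ± 8.97 in DRG. Tshz2 held a similar share of the Tshz level in both ganglia (64.5% ± 10.2 and 66.2% ± 7.95). In the Meis family no gene dominated on this scale, with Meis2 at 45.6% ± 12.2 in TG and 28.0% ± 16.1 in DRG (SD, n = 6 for each). Meis3 was at 25.3% ± 17.1 in TG and 45.0% ± 24.1 in DRG, and its exon length was 1.82 kilobases against 11.9 for Meis2. In CPM not divided by length, Meis2 had the highest mean of the family in TG (39.1, against 16.0 for Meis1 and 3.76 for Meis3). The same order held in DRG (12.1, 8.39 and 3.57 CPM).

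The comparison of TG with DRG was fitted over all genes in the 12 libraries, and 2 members, Onecut2 and Meis2, were higher in TG while 0 were higher in DRG. Over all 14829 genes tested, 143 were called at an adjusted p under 0.05 (0.964%), of which 93 were higher in TG (0.627%) and 50 higher in DRG (0.337%). Of the 22 members tested, 7 had an unadjusted p under 0.05, beside 8.83% of all genes. They included Onecut2, Meis2, Meis1 and Six4 among 5 toward TG (beside 4.65% of all genes), and Tshz2 and Tshz3 toward DRG (beside 4.18%). With DESeq2 3 members were called, beside 2.25% of all genes. With no filter on low counts 2 of 43 were called, beside 1.24%, with only the libraries numbered 1 and 2 it was 4 of 21, beside 5.47%, and without female DRG 1 and female TG 3 it was 4 of 21, beside 2.27%. In bulk RNA, fewer cells of a type and less RNA per cell cannot be told apart. All adjusted p-values here are from edgeR's quasi-likelihood test unless DESeq2 is named, and positive log2 fold changes are higher in TG.

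**Figure D2:**
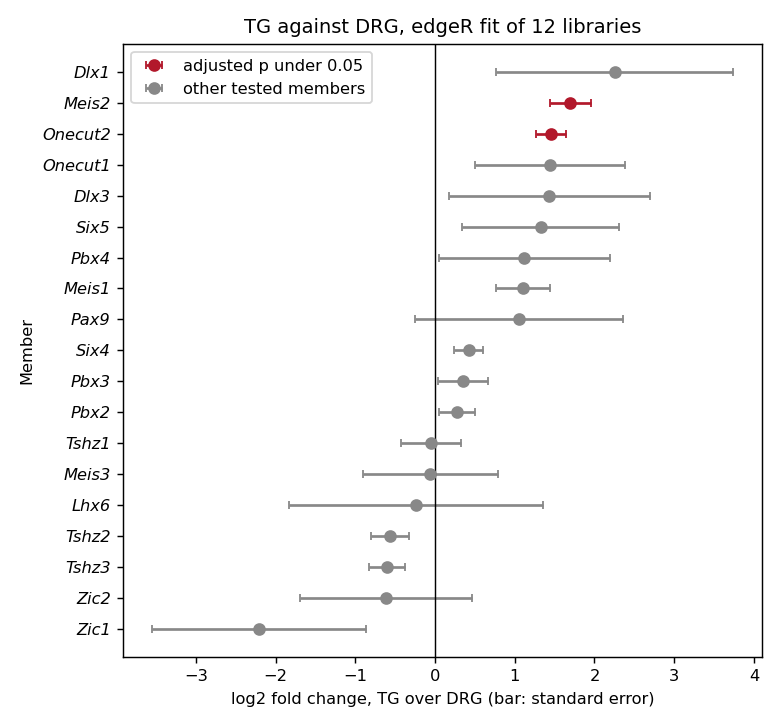
Points give the log2 fold change of TG over DRG for 19 tested members (Zic4, which has no finite standard error, is not among them), and bars give the standard error. Meis2 (1.70) and Onecut2 (1.46) are the 2 members past the threshold, and the sparse genes Lhx6 and Dlx1 have the widest bars.

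Onecut2 encodes a cut homeodomain activator known from neurons, liver and retina. Its level was 257, 182 and 187 CPM in female TG 1 to 3 and 224, 203 and 299 CPM in male TG 1 to 3. In DRG it was 76.0, 89.8 and 99.8 CPM in females and 57.2, 72.3 and 96.2 CPM in males. The lowest TG library lay above the highest DRG library. The log2 fold change was 1.46 (SE 0.188, adjusted p = 0.000312), and over 20 alternative settings it ran from 1.37 to 1.57 with each call kept. Set against the 8 sensory neuron markers, Onecut2 lay between 27.6 and 58.9 CPM per 1000 marker CPM in TG, against 7.07 to 19.2 in DRG, again without overlap.

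Meis2 encodes a TALE homeodomain factor that partners PBX proteins. The gene lies on chromosome 2 from 115688800 to 115891575 on the minus strand (mm9), and the 250 bases before its RefSeq start are shown with those of its paralog Meis1 because the 2 genes differed in how evenly they followed the ganglion. The sequences are read 5′ to 3′ on the gene's strand, and capitals mark CG dinucleotides.
Meis2: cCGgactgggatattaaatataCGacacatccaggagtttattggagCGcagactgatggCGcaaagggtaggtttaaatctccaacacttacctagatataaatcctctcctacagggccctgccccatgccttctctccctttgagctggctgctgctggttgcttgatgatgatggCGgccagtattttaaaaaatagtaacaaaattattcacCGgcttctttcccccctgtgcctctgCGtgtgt
Meis1: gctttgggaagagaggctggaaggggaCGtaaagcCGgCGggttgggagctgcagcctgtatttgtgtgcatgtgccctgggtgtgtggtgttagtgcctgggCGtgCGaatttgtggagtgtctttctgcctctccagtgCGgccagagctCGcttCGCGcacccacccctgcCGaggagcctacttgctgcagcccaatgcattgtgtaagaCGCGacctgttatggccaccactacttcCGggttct
The Meis2 window is chr2:116064620-116064869 and the Meis1 window is chr11:19018970-19019219, both on the minus strand of GRCm38.p6, a later build than the mm9 of the counts. The Meis2 window held 7 CG dinucleotides and the Meis1 window 13, beside a median of 6 over 32851 RefSeq promoter windows of this length. Neither window held TGACAG (a MEIS core), TAATTA (a homeodomain core) or ATTGAT (a ONECUT core) on either strand, letters found in 15.9%, 4.84% and 6.72% of all windows.

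The Meis2 level was 38.7, 32.1 and 43.6 CPM in female TG 1 to 3 and 41.2, 36.2 and 42.8 CPM in male TG 1 to 3. In DRG it was 14.3, 5.604 and 14.5 CPM in females and 15.8, 12.4 and 10.0 CPM in males. The TG libraries lay close together and all exceeded every DRG library. The log2 fold change was 1.70 (SE 0.256, adjusted p = 0.00141), with a range of 1.53 to 1.80 over 20 settings and each call kept. Per 1000 CPM of sensory neuron markers, Meis2 lay between 4.99 and 8.45 in TG, against 1.20 to 3.07 in DRG.

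Meis1, whose protein also binds with PBX and HOX partners, was less even. It was 14.6, 15.9 and 10.0 CPM in female TG and 23.3, 14.6 and 17.2 CPM in male TG. It was 19.8, 7.74 and 10.00 CPM in female DRG and 6.92, 3.29 and 2.68 CPM in male DRG. Female DRG 1, the library that stood apart, was above all TG libraries but 1, so the ganglia overlapped. The log2 fold change of 1.11 (SE 0.338) did not pass the test (adjusted p = 0.182), whereas without female DRG 1 and female TG 3 it was 1.44 and passed (adjusted p = 0.0212). Meis3 was sparse, between 0.0983 and 8.44 CPM in TG and between 0 and 5.91 in DRG (log2 fold change -0.06).

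TG libraries lay above all DRG libraries for 3 members, Onecut2 and Meis2 among them, beside 0.998% of all genes, and DRG libraries lay above all TG libraries for 0 members, beside 0.364%. Genes for PBX proteins, the partners of MEIS proteins, overlapped between ganglia in the cases of Pbx2, Pbx3 and Pbx4. Pbx2 lay between 18.5 and 34.6 CPM in TG, against 11.7 to 33.8 in DRG, and Pbx3 between 9.34 and 23.5 CPM in TG, against 6.19 to 14.6. Pbx4 reached 4.65 CPM at most. Their log2 fold changes were 0.27, 0.35 and 1.12, none past the threshold.

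**Figure D3:**
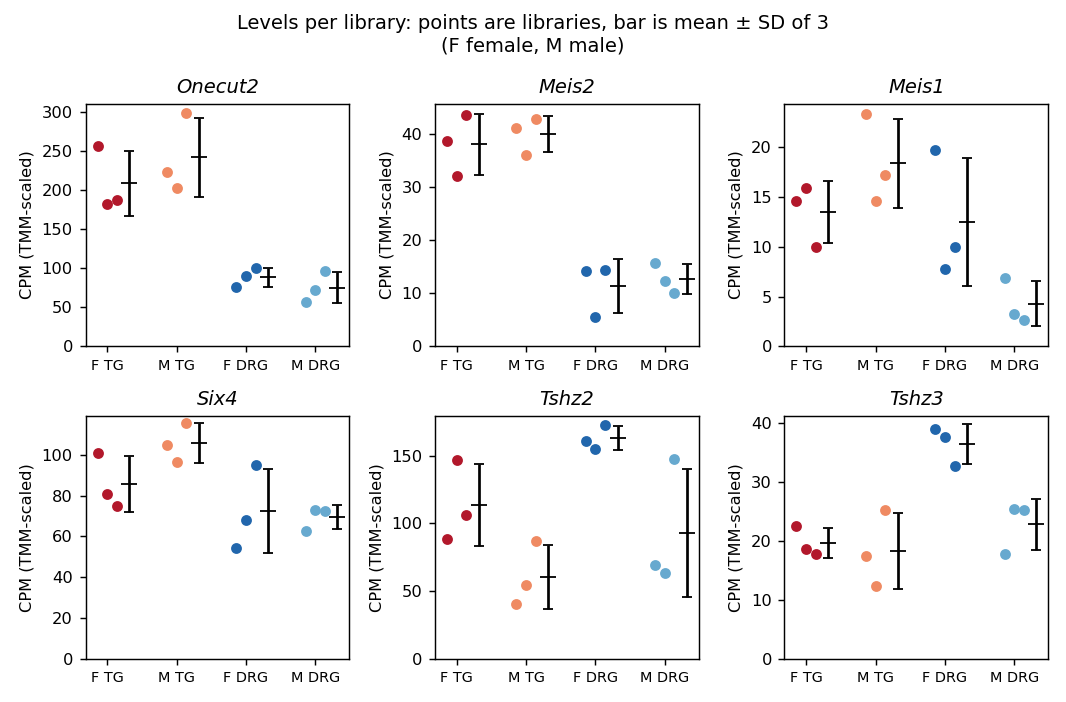
Each panel gives CPM of 1 member on a linear axis from 0, with a point per library, and the mean ± SD of the 3 libraries of each group beside it. TG points sit above all DRG points for Onecut2 and Meis2, and female points sit above all male points for Tshz2 within each ganglion.

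Six4, on the minus strand of chromosome 12 from 74201246 to 74214401 (mm9), encodes a placode and sensory neuron factor that works with EYA proteins. Six4 was 101, 80.6 and 75.0 CPM in female TG, 105, 96.6 and 116 CPM in male TG, 54.1, 68.1 and 95.0 CPM in female DRG and 62.8, 72.8 and 72.7 CPM in male DRG. Its log2 fold change was 0.42 (SE 0.179, adjusted p = 0.464), and female DRG 3 overlapped the TG range. It passed with only the libraries numbered 1 and 2 (log2 fold change 0.57, adjusted p = 0.0347).

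The teashirt genes had negative log2 fold changes, none past the threshold in the main comparison. Tshz2, whose gene overlaps antisense transcripts on the other strand, was 88.2, 147 and 106 CPM in female TG and 40.4, 54.6 and 86.7 CPM in male TG. It was 161, 155 and 172 CPM in female DRG and 68.9, 63.1 and 148 CPM in male DRG. The log2 fold change was -0.57 (SE 0.239, adjusted p = 0.460). Tshz2 passed toward DRG with replicate number as a block (log2 fold change -0.565, adjusted p = 0.0268), though the numbers were not taken as pairs. Tshz3 was 22.4, 18.6 and 17.7 CPM in female TG and 17.4, 12.4 and 25.2 CPM in male TG, beside 38.9, 37.6 and 32.6 CPM in female DRG and 17.8, 25.3 and 25.1 CPM in male DRG. Its log2 fold change was -0.60 (SE 0.229, adjusted p = 0.371), and the ganglia overlapped. Tshz1 lay between 5.44 and 15.9 CPM in TG, against 4.24 to 21.2 in DRG, with -0.05 (SE 0.379) between them. Fibroblast markers summed to between 618 and 1677 CPM in TG and between 1028 and 2192 in DRG, and their part in the Tshz values was not tested.

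The remaining tested members were sparse. Onecut1 lay between 1.17 and 6.19 CPM in TG, against 0 to 3.91 in DRG (log2 fold change 1.44), and Six5 between 1.31 and 5.37 in TG, against 0 to 2.25 in DRG (1.32). Dlx3, a face and skin homeobox gene, lay between 0.553 and 1.89 CPM in TG and between 0 and 1.502 in DRG (1.43), and Dlx1 reached 2.37 CPM in TG and 3.93 CPM in female DRG 1 (2.25). Pax9 lay between 0.207 and 3.70 CPM in TG and between 0 and 3.11 in DRG (1.05). Lhx6, the only LIM homeobox member tested, stayed at or below 1.31 CPM (-0.24). The dorsal neural zinc finger genes had higher DRG means, with Zic1 at 0 to 1.57 CPM in TG and 0 to 6.404 in DRG, and Zic2 at 0 to 3.34 and 0 to 8.36 (log2 fold changes -2.21 and -0.62). The Zic2 medians were close, at 1.30 CPM in TG and 1.24 in DRG, and its highest DRG values were in female DRG 1 and 2 (8.09 and 8.36 CPM). In males the Zic2 means were 0.866 CPM in TG and 0.777 in DRG. Zic4, which overlaps Zic1, had counts in 2 libraries of each ganglion. None of these passed the test, and single libraries decided several of the values. Without female DRG 1 the value for Dlx1 was 5.73, without male DRG 3 and male TG 3 in turn that for Pax9 was 3.86 and 0.45, and without female DRG 2 and male TG 3 in turn that for Zic1 was -1.18 and -3.60. Onecut1 was 2.66 and Dlx3 2.18 without female DRG 2.

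Of the 21 members with counts that did not pass the filter, 10 had counts only in TG libraries, 5 only in DRG libraries and 6 in both. Over all 2747 such genes 36.6% had counts only in TG libraries and 15.0% only in DRG libraries, and the TG libraries held 71218132 counts in all against 67165712 in DRG. Msx1, a homeobox factor of the face and neural crest, had 4, 29 and 60 counts in female TG 1 to 3, 10, 4 and 0 in male TG 1 to 3, and 0 in all 6 DRG libraries. Its mean in TG was 1.43 CPM, and against the floor of 3 counts in each DRG library that mean was at least 5.13-fold higher. The mean was 2.47 CPM in female TG and 0.396 CPM in male TG, so the bound does not hold for each sex. Female TG 3, which stood apart, gave 60 of the 107 counts, and without it the bound was 2.77-fold. When no filter was applied, Msx1 had an adjusted p of 0.140 in edgeR and of 0.0283 in DESeq2. Onecut3 had 46 counts over 4 TG libraries and 0 in DRG, and its TG mean was at least 2.29-fold higher (1.22-fold without female TG 3). Dlx2, a facial and forebrain homeobox gene, had 35 counts over 5 TG libraries and 0 in DRG, with a TG mean at least 1.81-fold higher. Pax3 (29 counts, 28 of them in female TG 3) and Irx5 (24) were each in 2 TG libraries and Dlx5 (21) in 1. In the other direction, Pitx3 had 25 counts and Six2 had 17, each in 2 DRG libraries, and Dlx4 had 12 in 2. Lhx2, Lhx9 and Pax7 had at most 5, 5 and 2 counts in any TG library, and Six3 and Lhx3 at most 9 and 5 in any DRG library. Of those with counts in both ganglia, Pax8 reached 19 counts in a library, Zic5 18, Six6 10, Pax5 8 and Irx3 3. Irx6, the Irx gene with the highest mean, had 23 counts in 3 DRG libraries and 5 in 2 TG libraries.

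The ganglion difference was then taken within each sex, since the sexes share no library. In females 0 of 19 members tested were called, where 5 of 13964 genes were (0.0358%), and in males 2 of 17 were, where 58 of 13996 genes were (0.414%). These counts depended on the tool and the libraries: DESeq2 called 56 genes in females and 179 in males, and edgeR called 0 to 1 and 17 to 92 when 1 library was left out. For Onecut2 the log2 value was 1.25 in females (SE 0.258, adjusted p = 0.407) and 1.68 in males (SE 0.273, adjusted p = 0.0178). For Meis2 it was 1.74 in females (SE 0.415, adjusted p = 0.585) and 1.66 in males (SE 0.275, adjusted p = 0.0190). With DESeq2 Onecut2 passed in females too (adjusted p = 0.00135). The male calls rested on few libraries: both were lost without male DRG 2, male TG 1 or male TG 3, Onecut2 was lost without male DRG 1 (adjusted p = 0.0999) and Meis2 without male TG 2 (adjusted p = 0.0784). TG libraries exceeded DRG libraries without overlap for 5 of 19 members in females, beside 6.27% of all genes, and for 5 of 17 in males, beside 7.47%, and Onecut2 and Meis2 were among them in both sexes.

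Meis1 was the only member with an unadjusted p under 0.05 for a ganglion difference that varied between the sexes. Its log2 fold change was 0.12 (SE 0.488, adjusted p = 0.9999) in females and 2.11 (SE 0.424, adjusted p = 0.0548) in males. The male value passed with DESeq2 (adjusted p = 0.00117), with edgeR and no filter (0.00971) and without male DRG 1 (0.0275), and missed the threshold without any 1 of the other 5 male libraries. The difference itself was -1.98 (SE 0.674, unadjusted p = 0.00876), with an adjusted p of 0.9998, and 0 of 14829 genes (0.00%) were called for it in edgeR or DESeq2, with 292 (1.97%) at an unadjusted p under 0.05 in edgeR, 1 of them a member. Females had Meis1 levels of 10.0 to 15.9 CPM in TG and 7.74 to 19.8 in DRG, whereas in males the 2 ganglia did not overlap. The female overlap came from female DRG 1 alone, the library that stood apart. Female DRG 2 and 3 (7.739 and 9.995 CPM) lay below the lowest female TG library (10.01 CPM), which was female TG 3, the other library that stood apart. Leaving out 1 library in turn, the difference between the sexes ran from -2.50 to -1.49.

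**Figure D4:**
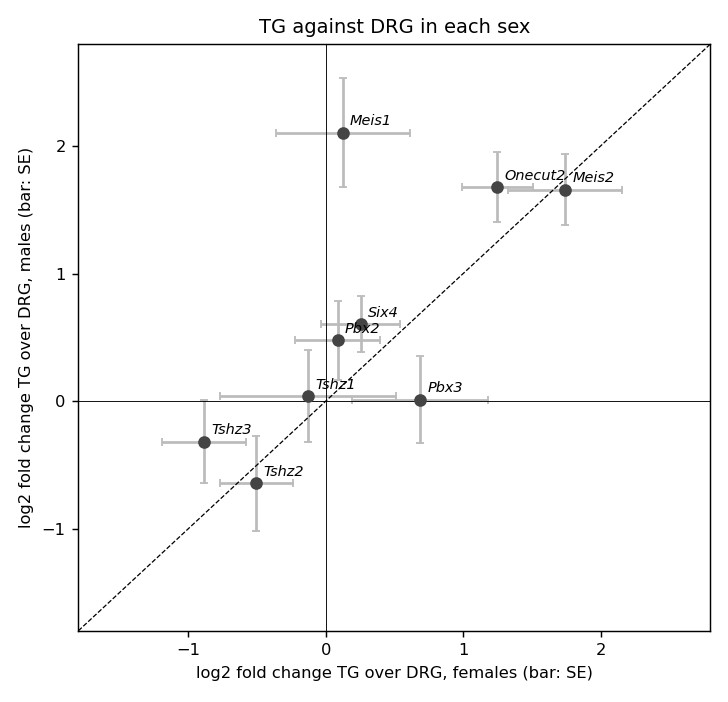
The log2 fold change of TG over DRG in females (horizontal) is set against that in males (vertical) for 9 abundant members, with bars for the standard error and a dashed line of equality. Onecut2 and Meis2 lie far from zero on both axes, and Meis1 at 0.12 and 2.11 lies farthest from the line.

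Between the sexes, 0 of 18 members tested in TG and 0 of 16 in DRG were called, where 5 genes were called in each ganglion (0.0357% of 14009 and 0.0358% of 13963). DESeq2 called 817 genes in TG and 348 in DRG, and edgeR called 3394 in TG without female TG 3 and 10 in DRG without female DRG 3, with 0 members among them. Tshz2 had the smallest p among members in TG, with a female minus male log2 difference of 0.96 (SE 0.319, adjusted p = 0.167), beside 0.79 in DRG (SE 0.349, adjusted p = 0.402). Female and male libraries did not overlap for Tshz2 in either ganglion, which held toward females for 2 of 18 members in TG (beside 11.2% of all genes) and for 4 of 16 in DRG (beside 7.85%). Fibroblast markers summed to between 1031 and 1677 CPM in female TG and between 618 and 1406 CPM in male TG, and to between 1460 and 2192 CPM in female DRG and between 1028 and 1612 CPM in male DRG, so the sexes overlapped. Their part in the Tshz2 difference was not tested. The Meis1 difference in DRG, female minus male, was 1.56 (SE 0.630, adjusted p = 0.373). By a fold above 2, an unadjusted p under 0.05 and a mean above 1 CPM in the higher sex, where the study set its minimum level in RPKM, 0 members in TG and 1 in DRG, Meis1, were counted, beside 7.41% and 4.97% of all genes.

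Binding partners and other regional factors were read from 2 lists. Of 18 partners (EYA, DACH, PKNOX, LIM domain binding and related genes), all tested, 0 were called and 5 had an unadjusted p under 0.05 (beside 8.83% of all genes), with a median log2 fold change of 0.03 beside -0.01 for all genes. Among these, Eya1, which codes for a coactivator in placodes, was 2.91 to 6.09 CPM in TG and 0.0939 to 1.18 CPM in DRG without overlap, and its log2 fold change was 3.27 (SE 0.816, adjusted p = 0.0686). Lmo3, a LIM-only factor, was 6.42 to 12.1 CPM in TG and 0 to 4.30 in DRG (log2 fold change 2.51, adjusted p = 0.211). Dach1 also lay toward TG (log2 fold change 0.98), whereas Pknox2 (-0.57) and Ldb2 (-0.55) lay toward DRG, each with overlap between the ganglia. Of 46 other homeobox and zinc finger factors, 22 were tested, 0 were called, 6 had an unadjusted p under 0.05 (beside the same 8.83%) and 13 were at 0 in all libraries. Eya1 and Lmo3 were singled out after their values were seen.

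Markers of tissues next to the ganglia were summed in the same way. Pituitary endocrine markers summed to at most 2.90 CPM in TG and 1.31 CPM in DRG, with Lhb, Fshb, Tshb, Cga and Pou1f1 at 0. Oligodendrocyte markers summed to at most 4.42 CPM in TG and 0.0847 CPM in DRG. In TG they were at 0.440, 1.13 and 4.42 CPM in female TG 1 to 3 and at 0 in each male library. Meningeal fibroblast markers summed to between 13.9 and 46.7 CPM in TG and between 10.4 and 61.2 in DRG. For choroid plexus markers the sums were 263 to 419 CPM in TG and 395 to 582 in DRG. Central neuron markers summed to between 80.5 and 183 CPM in TG and between 51.5 and 147 in DRG. Gad2, Slc32a1 and Neurod6 were at 0, so that sum came from Slc17a7 and Gad1 alone. Whether Slc17a7 and Gad1 counts came from central neurons was not tested. Bone and cartilage markers summed to between 4.37 and 12.2 CPM in TG and between 0 and 7.47 in DRG. No tested gene of any marker list passed the TG against DRG test. Only 1 of 8 pituitary, 0 of 5 oligodendrocyte, 2 of 5 central neuron and 3 of 5 bone and cartilage markers were tested. The others of these lists did not pass the filter on low counts, so the test could not call them. The part of these cells in the Onecut2 and Meis2 differences was not tested.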

How the data were processed

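RNA came from Percoll-enriched sensory neuron fractions of TG and DRG, from 10-20 ng total RNA, and was rRNA-depleted and sequenced as single reads. The authors aligned reads to mm9 with TopHat2 and counted them per gene with HTSeq, and the deposited values are raw counts; tool versions, the gene annotation and strandedness of counting were not given in the sources used here. Reads of genes overlapping antisense transcripts may therefore be mixed. The 5 summary lines per file were left out. The reads assigned to no gene feature, 1 of these lines, made up 37.6 to 50.4% of the sum of these reads and the gene counts. Groups and replicate numbers came from the sample titles.

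Counts were tested with edgeR 4.0.16 in R 4.3.3 (filterByExpr, TMM, quasi-likelihood F-test on 4 group means, mean TG minus mean DRG, Benjamini-Hochberg over all genes tested, adjusted p under 0.05). Within-sex, interaction and sex contrasts were fitted likewise. CPM values are TMM-scaled. Exon lengths came from GENCODE vM1 (mm9), which held all 61 members; promoter windows came from RefSeq. The code was checked on simulated counts with less spread than these data and no outlying library, so that check gives no error rates for these data. Alternatives were DESeq2 1.42.0, other scalings, no filter, a replicate block, libraries left out and, chosen after seeing the data, DESeq2 with no filter and scaling to sensory neuron markers. Floors of 3 counts in each library, in fold bounds too, cover counting error only. The members, gene lists and tests were chosen with earlier results of these data known. Values per library are given for members that passed a test in some setting, did not overlap between ganglia or led their family, and further members by range. Some members are not reported here by name.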

Additional observations from a re-analysis of the deposited data

Results flagged for a closer look

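Among 18 members with a mean above 1 CPM, the 6 libraries of each ganglion were searched for a single value far from the rest, in 36 groups in all, and 2 stood out, where chance flags about 1 in 20 groups. Both were in female DRG 2. Onecut1 was 3.91 CPM there, with the next DRG library at 1.22 CPM. Zic1 was 6.404 CPM there, with the next at 2.36 CPM.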

How the results depend on the processing

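Onecut2 and Meis2 kept direction and call in each of the 20 TG against DRG settings run, 12 of which left out 1 library. Of 19 members followed, 15 kept direction and 12 kept direction and side of the threshold in all 20 (in 18 for Dlx1, not tested in the other two). Genes called numbered 143, against 333 with DESeq2, 347 with DESeq2 and no filter, 218 with edgeR and no filter, 534 with the replicate block, 814 with only libraries numbered 1 and 2, 344 without female DRG 1 and female TG 3, and 77 to 231 leaving out 1 library (over 1.5 times apart from 143 without female TG 1, 2 or 3, male DRG 2 or any male TG library). Members higher in TG numbered 4 with libraries numbered 1 and 2 (Six4 among those added), 4 without the 2 libraries that stood apart (Meis1 among those added), 4 with DESeq2 and no filter (Msx1 among those added), and 2 to 3 leaving out 1 library. Members higher in DRG stayed at 0 to 0 leaving out 1 library. In females 1 member was called with DESeq2, and in males 0 to 2 leaving out 1 library (2 without male DRG 1 were Meis2 and Meis1).

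Same-numbered TG and DRG libraries correlated at 0.03 to 0.21 in females and 0.04 to 0.22 in males, all positive. Female and male DRG correlated at 0.03 to 0.17 and female and male TG at -0.10 to 0.01. TG and DRG libraries of the same number averaged 0.119 and 0.125, against -0.061 in both sexes for different numbers. Levels were taken as deviations from the group mean, so a positive same-number mean by itself pulls the different-number mean below zero. Not every library correlated best with its own number. The sources used here give no pairing, so the numbers were not taken as pairs. Whether the numbers mark a shared origin was not tested. With the replicate block 3 members were higher in TG, 1 in DRG (Tshz2, adjusted p = 0.0268), 2 were called in females (Onecut2, 0.0198, and Meis2, 0.0277), where 79 genes were, and 3 in males, where 194 were, Meis1 (0.00806) included.

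Signs changed for Lhx6 (0.58 with the block, 2.14 with libraries 1 and 2, -0.68 to 2.33 leaving out 1), Meis3 (0.0101, 0.42, and 0.16 without the 2 libraries, -0.51 to 0.46), Tshz1 (0.38 without the 2 libraries, -0.26 to 0.21) and Zic2 (-1.13 to 0.58). Female against male, Meis2 became 0.0874 in TG and 0.0212 in DRG without TMM factors, and leaving out 1 library it ran from -0.18 to 0.0396 and from -0.34 to 0.19. Onecut2 in TG ran from -0.39 to 0.02, and the Meis2 interaction from -0.25 to 0.29. The cause was not tested. Depth limits the members near 3 counts.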
